A study of Mus musculus with 2 samples.

Results

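The glucocorticoid receptor gene Nr3c1 and 9 genes known as its targets in muscle were followed in skeletal muscle of mice with and without a cachexia-inducing tumour. The genes were chosen by name, and every non-control probe on the array listed under such a name was taken, which gave 11 probes for 10 genes of 35018 gene names and 55680 probes in all. The data are 1 array of a control sample (PBS injection) and 1 array of a sample labelled C26, both from male CD2F1/Slc mice, 11 weeks old, and both from skeletal muscle. The C26 model of cancer cachexia was made by placing 1000000 colon 26 carcinoma cells in 100 µL of PBS under the skin of the flank. The labels do not give which muscle was taken, how many mice contributed, the time after implantation or the hour of sampling. There are no replicates, so no test was possible, no p-value is given, and every value describes these arrays. The error given for a spot was computed by the scanner software and leaves out the spread between animals. Per the file headers it rests on a preset 10% of the signal, so for spots of this brightness an error near 0.20 on the log2 ratio is a nominal allowance and not a measured spread. For a probe printed in several copies this allowance was averaged over the copies. Its smaller error is nominal as well.

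Glucocorticoids are steroid hormones of the adrenal gland, chiefly corticosterone in mice. They enter cells and bind the glucocorticoid receptor, which is held ready by heat shock proteins and their partners, and the receptor then moves to the nucleus and binds DNA as a pair at glucocorticoid response elements. In skeletal muscle the receptor is known for promoting protein breakdown and restraining growth, partly through further transcription factors that it induces. Fkbp5, Tsc22d3 and Zbtb16 are widely used as markers of receptor activity, although each is also under other control.

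RefSeq promoter sequence (GRCm38.p6, 250 bases before each listed start) was searched for 7 of the 10 genes, at 15 starts in all. Nr3c1 was left out of this search, and no sequence was listed for Cebpd and Zbtb16. A search of both strands for the consensus glucocorticoid response element, spelled AGAACA, any 3 bases, then TGTTCT, found 1 match among these 15 windows, before 1 of the 6 starts of Sgk1. The same letters occurred in 0.00913% of the 32851 promoter windows of the whole table. The 3 windows below were picked with the C26 over control ratios known, and a relation of element to ratio was not tested. The Sgk1 window holds the element (capitals, chr10:21993640-21993889, plus strand). The Tsc22d3 window, before 1 of its 3 starts, holds a single arm of it (AGAACA or its complement, capitals, chrX:140600523-140600772, minus strand). The window of Fkbp5, with the largest C26 over control ratio of the 10 genes, holds neither (chr17:28486150-28486399, minus strand, E-box CACGTG in capitals). Sequence outside these 250 bases was not searched, so elements elsewhere in or near a gene are not covered.
Sgk1: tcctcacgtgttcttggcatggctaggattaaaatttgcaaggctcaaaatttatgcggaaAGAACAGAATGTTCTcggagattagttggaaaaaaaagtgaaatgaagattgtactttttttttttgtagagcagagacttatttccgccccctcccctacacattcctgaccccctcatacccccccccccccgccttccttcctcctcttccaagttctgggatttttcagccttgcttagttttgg
Tsc22d3: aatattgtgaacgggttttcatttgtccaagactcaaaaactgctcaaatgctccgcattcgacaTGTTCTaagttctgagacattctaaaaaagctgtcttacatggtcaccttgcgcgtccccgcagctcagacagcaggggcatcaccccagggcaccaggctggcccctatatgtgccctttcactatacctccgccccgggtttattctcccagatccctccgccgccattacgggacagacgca
Fkbp5: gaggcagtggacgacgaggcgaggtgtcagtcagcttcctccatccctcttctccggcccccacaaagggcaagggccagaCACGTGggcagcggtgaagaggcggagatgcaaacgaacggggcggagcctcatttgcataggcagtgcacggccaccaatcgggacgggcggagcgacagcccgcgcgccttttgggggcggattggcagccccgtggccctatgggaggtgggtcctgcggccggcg

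The element of Sgk1 lies at bases -189 to -175 counted from the start, and the arm of Tsc22d3 at -185 to -180. A single arm is common: 16.1% of all windows hold it. So do 4 of the 15 windows of these genes, that of Tsc22d3 and otherwise only windows of Sgk1. This counts the Sgk1 window in which it is part of the full element. E-boxes, the CACGTG sites bound by clock and other factors, stood in 6.02% of all windows and in 3 of the 15, namely that of Fkbp5 at -169 to -164, 1 of Sgk1 and that of Klf15. The Klf15 window, shown for its 2 E-boxes (capitals, chr6:90462326-90462575, plus strand), has them at -228 to -223 and -172 to -167.
Klf15: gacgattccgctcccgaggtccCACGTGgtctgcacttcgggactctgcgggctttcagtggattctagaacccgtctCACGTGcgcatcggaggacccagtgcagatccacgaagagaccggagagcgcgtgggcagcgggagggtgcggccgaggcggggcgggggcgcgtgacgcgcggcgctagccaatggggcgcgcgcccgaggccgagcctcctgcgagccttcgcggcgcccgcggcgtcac

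A cAMP response element (TGACGTCA, in 1.55% of all windows) stood before 1 of the 2 starts of Errfi1, a FoxO site (GTAAACA, 3.17%) before the start of Klf9 and a C/EBP site (TTGCNNAA, 9.56%) before 1 start of Sgk1. These are matches of letters in a short window and say nothing of binding.

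All 10 genes had a higher level in the C26 array than in the control array, and 4 of them, Fkbp5, Zbtb16, Cebpd and Cebpb, were at least 2-fold higher. Of the 19767 genes measured, that is with a brightest probe well above background on both arrays, 1.24% passed 2-fold upward, 1.16% passed it downward and 56.4% had a log2 ratio above 0. None of the 10 was 2-fold lower. The genes and the 2-fold threshold were chosen with earlier results of these data known, so the counts are a description and not independent support. The median log2 ratio of the 10 genes was 0.67, and that of the 9 targets without the receptor 0.74, against 0.04 over all measured genes. A 1.5-fold higher level was reached by 6 of the 10 against 4.36% of measured genes (4.82% were that much lower). Fkbp5 and Zbtb16 were at least 3-fold higher, as were 0.344% of measured genes (0.228% were that much lower). Under each of 7 other scalings and background corrections these counts were 5 and 1, since Errfi1 came below 1.5-fold and Zbtb16 below 3-fold. In bulk muscle, fewer cells of a type and less RNA per cell cannot be told apart, and the same holds for more of either.

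**Figure D1:**
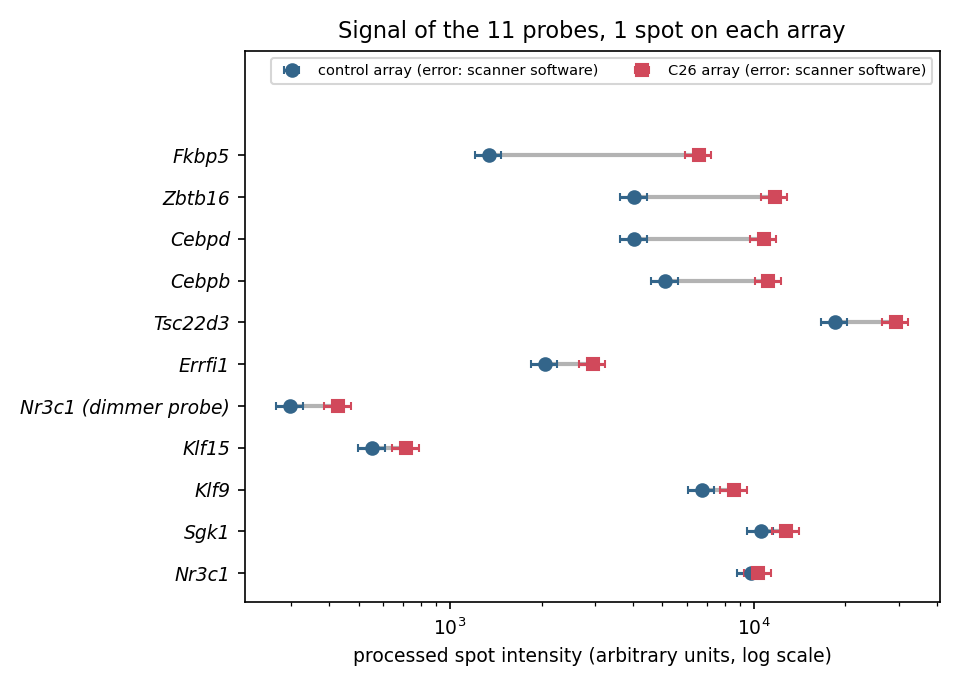
Processed intensity of each probe (horizontal log axis, arbitrary units) on the control array (blue circles) and the C26 array (red squares), with the scanner software's error as bars and genes ordered by ratio. Fkbp5 shows the widest gap, from 1338 to 6575, while the brighter Nr3c1 probe differs least.

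The receptor itself differed little by its brighter probe. Nr3c1 read 9762 (error 976) on the control array and 10330 (error 1033) on the C26 array, intensities in arbitrary units that overlap within their errors. After scaling each array by its 75th percentile (intensity 262 on the control and 249 on the C26 array), the log2 ratio of C26 over control was 0.15 (error 0.20), a 1.11-fold difference that placed Nr3c1 at rank 6653 of 19767. A second, dimmer Nr3c1 probe read 298 (error 30.04) and 429 (error 42.99), a log2 ratio of 0.60 (error 0.21) or 1.51-fold higher in C26. The probes are listed at positions 4827 and 2285 of the same transcript, 2542 bases apart, the brighter one nearer the 3′ end. Their ratios differed by 0.44 (error 0.29), a gap exceeded by 14.5% of the 3747 genes with 2 measured probes, where the median gap was 0.15. Both probes were above 0, and their mean was 0.38.

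Fkbp5 encodes FKBP51, a partner of the receptor's heat shock protein that lowers the hormone affinity of the receptor and so closes a negative feedback loop. Its probe (chromosome 17, 28536060 to 28536119, mm9) read 1338 (error 134) on the control array and 6575 (error 658) on the C26 array. This 5.17-fold difference (4.49 to 5.95 within the error, log2 ratio 2.37, error 0.20) was the largest of the 10 genes and rank 17 among all measured genes. It exceeded the next of the 10, Zbtb16, by 0.76 on the log2 scale (error 0.29).

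Tsc22d3 encodes GILZ, a leucine zipper protein that mediates part of the anti-inflammatory action of glucocorticoids. It had the brightest probe of the 10 genes on both arrays (chromosome X, 137074094 to 137074153, mm9), with 18416 (error 1842) on the control array and 29250 (error 2925) on the C26 array. The level in C26 was 1.67-fold higher (log2 ratio 0.74, error 0.20), which is short of 2-fold and rank 501.

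Zbtb16 encodes PLZF, a zinc finger repressor. Its intensity was 4041 (error 404) in control and 11716 (error 1172) in C26 at chromosome 9, 48462419 to 48462478 (mm9). The fold was 3.05 (2.65 to 3.51 within the error, log2 ratio 1.61), at rank 64.

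The Krüppel-like factors Klf9 and Klf15 were both modestly higher. Klf15, which drives amino acid breakdown in muscle, read 554 (error 55.6) and 718 (error 71.8) on the control and C26 arrays (chromosome 6, 90425144 to 90425203, mm9). Klf9, a repressor induced quickly by glucocorticoids in several tissues, read 6721 (error 672) and 8608 (error 861) (chromosome 19, 23240410 to 23240469, mm9). Their log2 ratios were 0.45 (error 0.20) and 0.43 (error 0.20), or 1.36-fold and 1.35-fold, and differed from each other by 0.02 (error 0.29). Both lay within the top 10% of measured genes, at ranks 1556 and 1678, but under other scalings Klf15 (0.37 to 0.40) came below 2 errors in all 7 and Klf9 (0.32 to 0.41) in all except normexp background correction.

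Sgk1 encodes a serum- and glucocorticoid-regulated kinase related to AKT. In the array its readings of 10535 (error 1054) in control and 12751 (error 1275) in C26 (chromosome 10, 21719507 to 21719566, mm9) gave the smallest difference among the 9 targets, 1.27-fold (log2 ratio 0.35, error 0.20, rank 2606). Its ratio was under 2 errors and ranged from 0.23 to 0.37 over the other scalings. Its window with the full response element is printed above.

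Cebpb and Cebpd encode the C/EBP beta and delta transcription factors, which respond to glucocorticoids and to inflammatory cytokines and have been tied to the muscle ubiquitin ligases. For Cebpd (chromosome 16, 15888459 to 15888518, mm9) the readings were 4038 (error 404) and 10759 (error 1076), 2.80-fold higher in C26 (2.43 to 3.23 within the error, log2 ratio 1.49, rank 83). Cebpb (chromosome 2, 167515828 to 167515887, mm9) read 5099 (error 510) and 11159 (error 1116), or 2.30-fold (1.998 to 2.65 within the error, log2 ratio 1.20, rank 146). Thus the lower end of the error of Cebpb touched the 2-fold line. The gap of 0.28 between Cebpd and Cebpb was within its error of 0.29.

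Errfi1 encodes MIG6, a feedback inhibitor of the epidermal growth factor receptor family. Its probe (chromosome 4, 150242886 to 150242945, mm9) read 2047 (error 205) on the control and 2951 (error 295) on the C26 array, 1.52-fold higher in C26 (log2 ratio 0.60, error 0.20, rank 810).

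**Figure D2:**
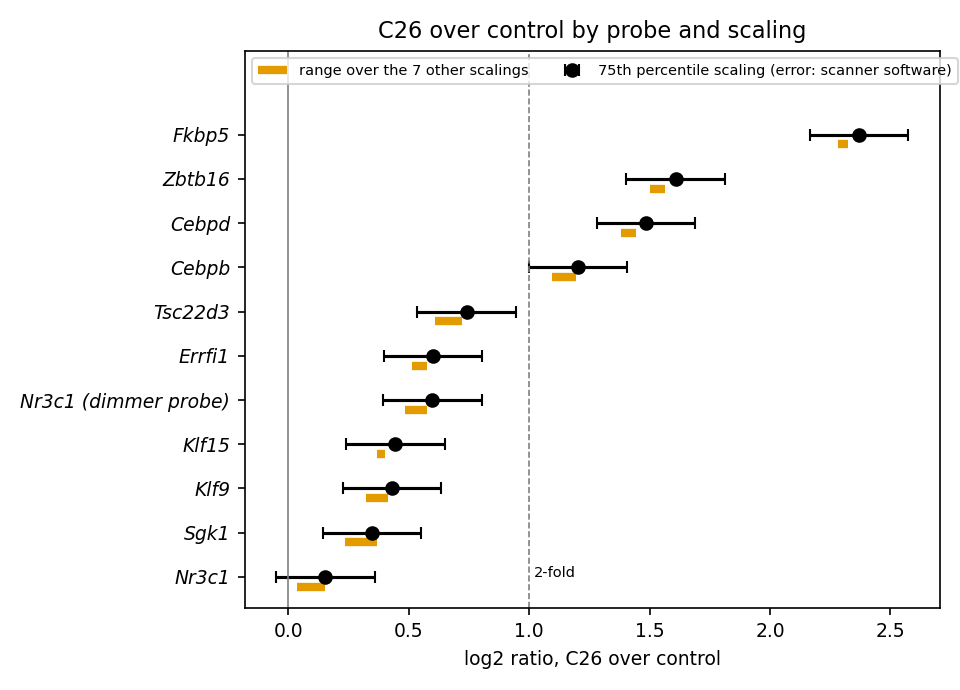
Log2 ratio of C26 over control for each of the 11 probes (black points, bars for the scanner software's error) with the range over 7 other scalings (orange). Fkbp5, Zbtb16, Cebpd and Cebpb lie above the dashed 2-fold line under every scaling shown, and all probes stay above 0.

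Ordered by ratio, the 10 genes were each set against the next. Of the 9 gaps between neighbours, 2 were larger than the error of the gap: that between Fkbp5 and Zbtb16, and the 0.46 (error 0.29) between Cebpb and Tsc22d3. Within Zbtb16, Cebpd and Cebpb, and from Tsc22d3 down through Errfi1, Klf15, Klf9 and Sgk1 to Nr3c1, neighbours did not differ beyond the error. That error is the nominal allowance, and only neighbours were compared. Genes further apart in the same run, such as Tsc22d3 at 0.74 and Nr3c1 at 0.15, are not shown to be alike. Of the 10 genes, 4 stood in the top 1% of measured genes by ratio and 8 in the top 10%.

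The spot flags were alike across the probes, whereas the spread of pixels within a spot ran from 5.71% to 22.4% of its mean signal. Each had 1 spot on each array, well above background, with neither an outlier flag nor saturation, and the raw signal was 6.06 to 479 times the local background. The genes were brighter than most: 42.2% of measured genes were brighter than the dimmest of the 10, Klf15, and 4.82% brighter than the brightest, Tsc22d3. Among the 8348 genes as bright as Klf15 or brighter, 1.21% passed 2-fold upward and 0.419% passed it downward. Over 389 probes printed in at least 8 copies, the spread between copies implied a standard deviation of 0.12 for the log2 ratio of single spots, less than the preset 0.20.

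**Figure D3:**
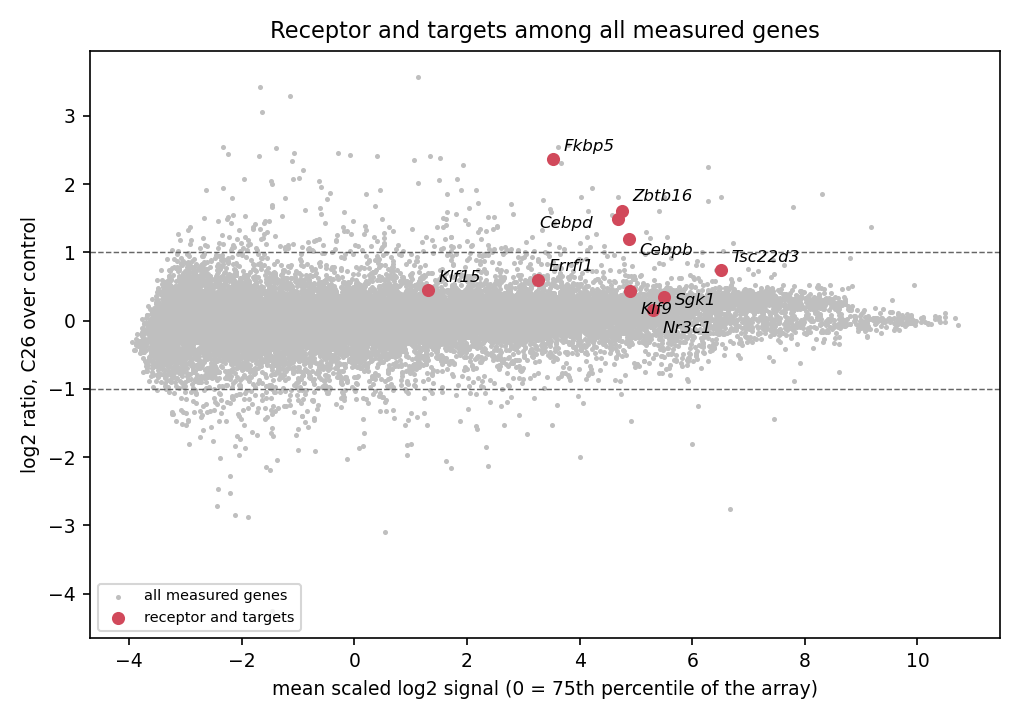
Log2 ratio of C26 over control (vertical) against mean scaled log2 signal (horizontal, 0 is the 75th percentile of the array) for the 19767 measured genes (grey) and the 10 genes (red), dashed lines at 2-fold. Fkbp5, Zbtb16, Cebpd and Cebpb stand above most genes of like brightness, and the other 6 lie within the cloud of genes, above 0.

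The genes were set beside their relatives. Among FK506-binding proteins other than Fkbp5, none of 13 measured was 2-fold higher or lower, with a median log2 ratio of -0.12, from Fkbpl at 0.42 to Fkbp1b at -0.70. Fkbp4 (named after its value was seen), whose product FKBP52 opposes FKBP51 on the receptor complex, stood at 0.17. The other TSC22 domain genes had 0.25 for Tsc22d1, -0.25 for Tsc22d4 and -0.61 (error 0.42) for the dim Tsc22d2. Probes of Tsc22d4 ranged from -0.81 to 0.27.

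In the C/EBP family, Cebpa stood at 0.18 and Cebpg at 0.17, and Cebpe was not well above background on both arrays. Cebpz, listed with this family by name only, stood at 0.47. The KLF family had 11 other measured members with a median of 0.31. Of these, 2 were at least 2-fold higher, Klf10 at 1.22 and Klf2 at 1.06, both above Klf9 and Klf15, and Klf7 was lowest at -0.23 (Klf2 was named after its value was seen). Sgk3 stood at -0.12, with a second probe at 0.67, and Sgk2 was not well above background. Of the other steroid receptors, the mineralocorticoid receptor Nr3c2, which also binds corticosterone, stood at 0.90 (error 0.33) from a dim probe, at intensities of 26.8 and 47.6. Esr1 had 0.30 with a second probe at -0.12 and Esr2 -0.08, while Pgr was not well above background.

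**Figure D4:**
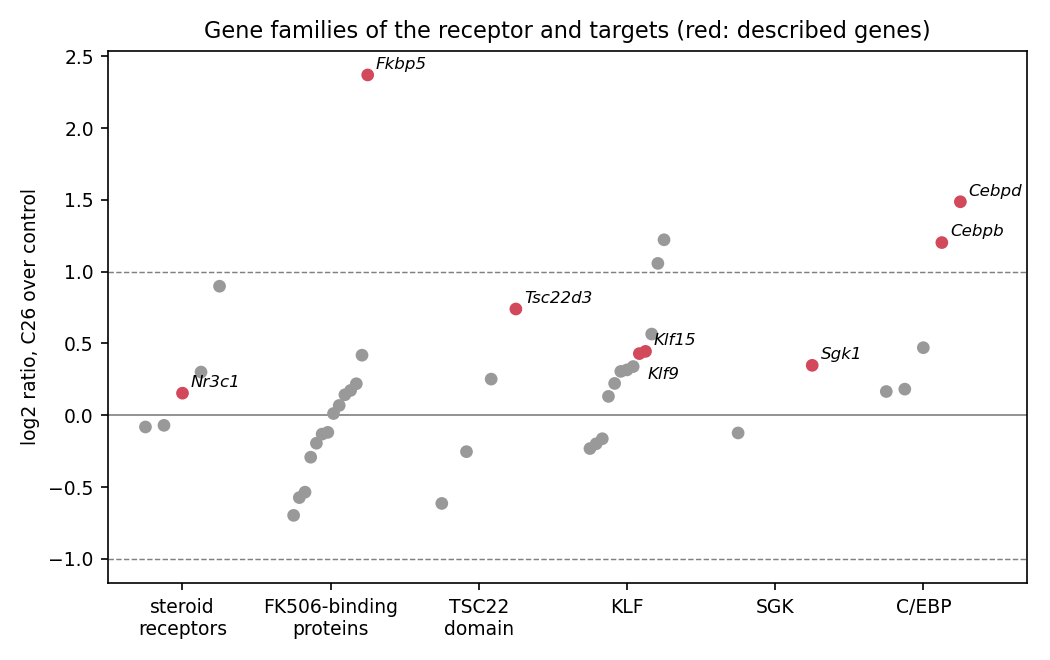
Log2 ratio of C26 over control (vertical) for the measured genes of 6 families (1 point per gene), with the 8 described genes that belong to these families in red and named, and dashed lines at 2-fold. Fkbp5, Tsc22d3, Sgk1, Cebpb and Cebpd are the highest points of their families when each gene is shown by its brightest probe, whereas Nr3c1, Klf9 and Klf15 are not. The C/EBP column includes Cebpz by name only.

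Genes that supply hormone to the receptor or attend it differed little. The enzyme Hsd11b1, which regenerates active corticosterone within cells, stood at 0.26 (error 0.07), its cofactor supplier H6pd at 0.10, and the efflux pumps Abcb1a and Abcb1b at 0.11 and 0.48. Hsd11b2, which inactivates the hormone, was not well above background on both arrays. Of 12 receptor chaperone genes, none was 2-fold higher or lower (median 0.15, from Ptges3 at 0.40 to Ppid at -0.19), and the same held for 13 coregulators (median 0.12, lowest Ncoa1 at -0.25).

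A further list of 26 genes known to respond to glucocorticoids, none of them among the 10, was read the same way. It was chosen with earlier results of these data known, so its counts are a description and not independent support. In C26, 13 of the 25 measured passed 2-fold upward and none passed it downward, with a median log2 ratio of 1.22, against the 1.24% and 1.16% of all genes given above. The 5 highest were Fbxo32, the ubiquitin ligase atrogin-1, at 2.58 (error 0.06), Pdk4, which restrains pyruvate oxidation, at 2.26, Hif3a at 2.07, the cell cycle inhibitor Cdkn1a at 1.85 and the mTORC1 inhibitor Ddit4 at 1.81. Fkbp5 lay between Fbxo32 and Pdk4 in this order. Hif3a, dim on the control array at 60.3, and Cdkn1a each rest on 1 measured probe of 3. The 5 lowest were the phosphatase Dusp1 at 0.18, Mstn (myostatin) at 0.16, Cdkn1c at 0.06, Rhob at -0.0033 and Anxa1, the anti-inflammatory annexin, at -0.76. A second Rhob probe gave 0.26 and the second Anxa1 probe -0.75. Many of these genes also answer FoxO factors, fasting or cytokines, and which input acted was not tested.

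**Figure D5:**
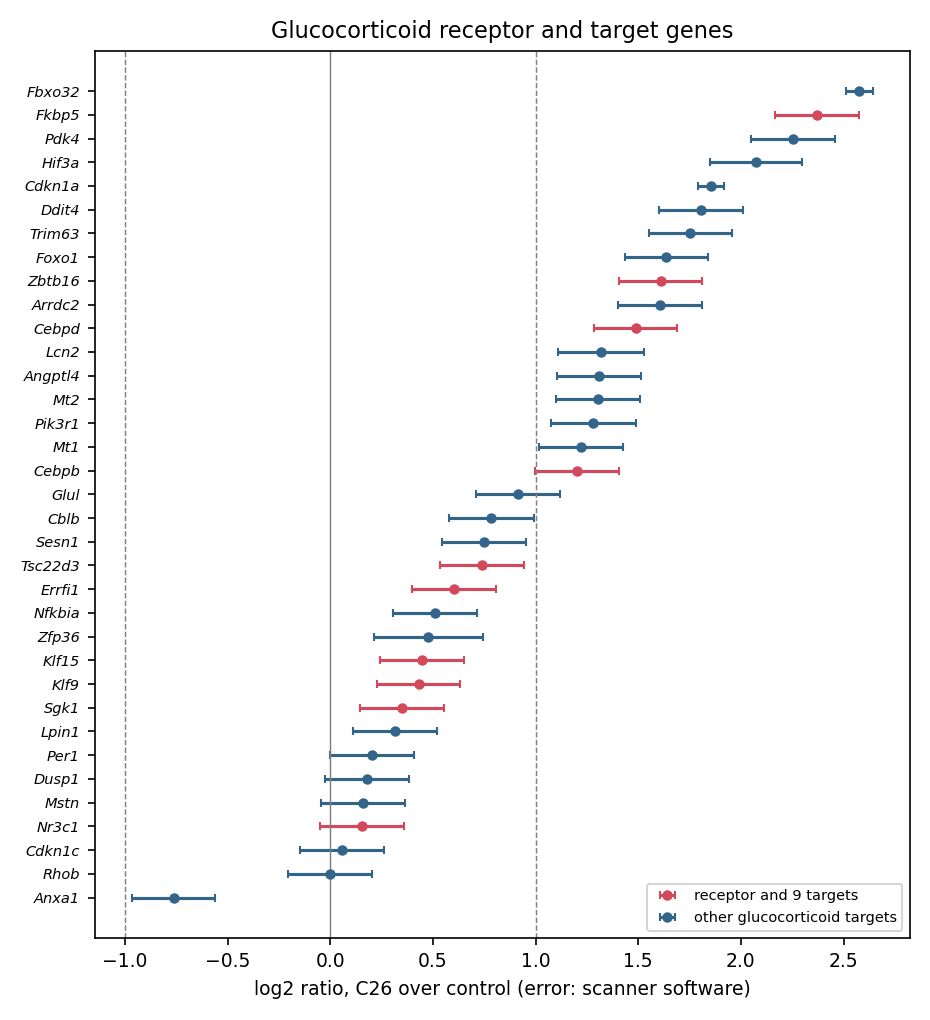
Log2 ratio of C26 over control (horizontal, bars for the scanner software's error) for the 10 genes (red) and 25 other measured glucocorticoid targets (blue), dashed lines at 2-fold. The red genes are spread through the order, from Fkbp5 near the top to Nr3c1 near the bottom, and Anxa1 alone lies clearly below 0.

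Genes tied to KLF15 or to MIG6 did not all go the same way. Of 4 amino acid breakdown genes tied to KLF15, the proline oxidase Prodh stood at 0.96 (1.95-fold) and the alanine transaminase Gpt2 at 0.60, while Bcat2 had 0.02 and Gpt -0.22. Among the receptors that MIG6 binds, Egfr had -0.38 (error 0.06, its probes running from -0.38 to 0.02) and Erbb2 0.19, and Erbb3 and Erbb4 were not well above background. Of 10 inflammatory genes that glucocorticoids restrain, 4 were measured on both arrays, 3 below 0 and 1 above (median -0.21). Ccl2 was lowest at -1.17 and Icam1 highest at 0.31. Icam1 was dim, at 31.2 and 36.8 on the control and C26 arrays (error 0.32). The other 6 were not well above background on both arrays, and their dim readings went in both directions.

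Other gene groups also differed between the arrays. The clock list had 17 measured genes, from Nfil3 at 1.81 to Nr1d1 at -2.06. Of these, 2 passed 2-fold upward and 3 downward, against 1.24% and 1.16% of all measured genes. Klf9, Klf15 and several other targets vary with the time of day, the hour of sampling is not given in the labels, and its part in these ratios was not tested. Of 16 measured IL-6, STAT3 and acute-phase genes, 7 were at least 2-fold higher (median 0.93), against the same 1.24% of all measured genes. They ran from Saa2 at 3.42 to Lifr at -0.33, with another Lifr probe at 0.31. The lists overlap: Lcn2 is counted here and among the further glucocorticoid targets, and Per1 is among those targets and in the clock list (both named for the overlap only). Cebpb and Cebpd answer this pathway as well as glucocorticoids, and the share of each was not tested.

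The label of skeletal muscle was borne out by bright fibre markers, with Ckm at 244727 and 241490 on the control and C26 arrays, and none of 7 fibre markers was 2-fold different (median 0.04). Markers of other cells differed between the arrays. Levels summed over the measured markers, in multiples of each array's 75th percentile, went from 25.8 in control to 19.5 in C26 for macrophages (6 of 7 measured, all below 0, not Cd163), from 543 to 371 for fibroblasts (4 of 4, all below 0) and from 365 to 960 for erythroid cells (3 of 6, all at least 2-fold higher). They went from 102 to 134 for adipocytes (5 of 5), from 39.3 to 47.4 for endothelium (5 of 5), from 15.0 to 16.8 for lymphocytes (4 of 5, not Cd8a) and from 128 to 112 for neutrophils (4 of 6, not Ngp or Retnlg). The neutrophil sum followed its brightest probe, Csf3r, at -0.26, whereas the other 3 measured markers were above 0, with S100a8 at 2.46, S100a9 at 2.35 and Ly6g at 0.36, and the list's median was 1.35. The part of these cells in the 10 ratios was not tested.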

How the data were processed

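Total RNA labelled with Cy3 was hybridised to 1 one-colour array per group. Per the file headers, Agilent Feature Extraction 10.7.1.1 made the deposited spot intensities (the submitters' processing notes list 9.5.1.1), with spatial and multiplicative detrending switched on, background correction switched off, and probe positions on mm9. The authors' deposited table of 1 intensity per probe was linear and uncentred with equal column medians of 19.75 and was used as an alternative. Its making is not described in the labels. Deposited flags, scored 0 or 1 per spot, marked outliers and spots well above background.

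Outlier spots were left out, spots of a probe averaged on the log2 scale, and each array's 75th percentile over non-control probes subtracted. A gene took its brightest probe. Names came from the reference table for 30816 probes and from the file for 24864. Of the non-control spots, 50.4% and 53.8% were well above background on the control and C26 arrays, and the number of arrays limits precision. The computation was tested on simulated data. Genes, lists and the 2-fold threshold were chosen with earlier results of these data known. Named from the lists are the 5 highest and 5 lowest other targets, the highest and lowest of each further list described by a range, and the genes of small families, except for items that are not reported here. The software was Python 3.11.15, numpy 2.4.6, pandas 2.3.3, R 4.3.3 and limma 3.58.1.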

Additional observations from a re-analysis of the deposited data

How the results depend on the processing

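The alternatives were normexp correction (offset 50), loess (span 0.3), median scaling, quantile normalization, a 75th percentile restricted to probes that stood well above background, the deposited value table, other filters on dim probes (none, or a signal of at least 50), the mean over a gene's probes, and thresholds of 1.5-fold and 3-fold. Scaling to 7 spike-in transcripts was chosen after seeing the data. All 11 probes stayed above 0 under the 7 other scalings and corrections, the same 4 genes stayed at least 2-fold higher, and no probe moved by more than 0.13. Nr3c1 lay between 0.04 and 0.15 there but at 0.38 with the mean over its probes. At 3-fold, 2 of the 10 genes and 8 of the other targets were higher, but 1 of the 10, Fkbp5, under each of those 7. At 1.5-fold the 6 of the 10 became 5. At 1.5-fold, 1 other target was lower. Over all genes, 246 were at least 2-fold higher and 229 lower. These counts were 131 and 65 with normexp, 1587 and 1330 when dim probes were kept, 861 and 953 past 1.5-fold, and 68 and 45 past 3-fold. With the stricter filter, 140 were lower. Higher genes made up 51.8% of those past 2-fold, against 41.6% with spike-in scaling and 66.8% with normexp. No paired analysis was possible because each group has 1 sample. Dim probes, such as those of Nr3c2 and Tsc22d2, carry the largest errors.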
